A study of Mus musculus with 8 samples.

Results

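The accessible chromatin of 9 genes of transforming growth factor beta (TGF-beta) signaling was examined in mouse mammary tumor cells. These were the ligand genes Tgfb1, Tgfb2 and Tgfb3, the receptor genes Tgfbr1, Tgfbr2 and Tgfbr3, the signal transducer gene Smad3, the feedback inhibitor gene Smad7, and Inhba, which encodes a subunit of the related ligand activin A and responds to TGF-beta. They were taken by name from 21755 protein-coding genes, of which 18524 had a peak in at least 1 library and were tested. For each gene, every ATAC-seq peak that touched the gene body or lay within 10 kb of a transcription start site (TSS) was collected. Merging peaks that overlapped or touched between libraries gave 183173 regions, of which 140 fell within the windows of the 9 genes.

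ATAC-seq uses a transposase that inserts adapters into open DNA, and a peak marks a stretch where many fragments were recovered. The cells were tumor-derived lines of the MMTV-PyMT model, in which the polyoma middle T oncogene is driven in mammary epithelium, on the strain given as FBV/N. Lines were either WT or deleted for Lats1, a kinase of the Hippo pathway (Lats1-CKO), and all of them carried the oncogene. The means by which Lats1 was deleted and the age of the animals from which the lines were derived are not given in the sources used here. Each line was sorted into luminal cells (EpCAM-high; CD49f-high) and basal-like cells (EpCAM-low; CD49f-high), which were briefly grown in culture, and the labels name no drug. There were 2 libraries for each of the 4 groups. The WT luminal pair was named BM1 and BM5, and the WT basal-like pair BM2 and BM6. For Lats1-CKO the luminal pair was BM3 and BM7 and the basal-like pair BM4 and BM8. The study calls the libraries of a group biological replicates, and neither it nor the labels say whether they came from separate lines or cultures of 1 line, so the p-values measure only the spread between these libraries.

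The TGF-beta ligands are secreted in a latent form and, once released, bring a type II receptor (Tgfbr2) together with a type I receptor (Tgfbr1), which phosphorylates SMAD2 and SMAD3. These enter the nucleus with SMAD4 and act on chromatin with partners such as AP-1. SMAD7 is induced by the signal and turns the receptors off, and the betaglycan encoded by Tgfbr3 presents ligand, TGF-beta 2 in particular, to the signaling receptors. In mammary tumors the pathway is known for its restraint of epithelial growth and for its part in the transition to mesenchymal traits.

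Some of the regions that the results turn on are shown here as the sequence of GRCm38, read 5′ to 3′ on the strand of the gene. The first was higher in all 4 basal-like libraries, the second had peaks in basal-like libraries and in no luminal one, and the third had its peaks in WT libraries and, weakly, in 1 Lats1-CKO library. The last pair lie just upstream of the annotated starts of Tgfbr1 and Tgfbr2, and their regions had high-ranking peaks in both populations. Capitals mark matches, on either strand, to 6 short motifs spelled out after the sequences.
Tgfbr2 intron 2, chr9:116152905-116153204, minus strand: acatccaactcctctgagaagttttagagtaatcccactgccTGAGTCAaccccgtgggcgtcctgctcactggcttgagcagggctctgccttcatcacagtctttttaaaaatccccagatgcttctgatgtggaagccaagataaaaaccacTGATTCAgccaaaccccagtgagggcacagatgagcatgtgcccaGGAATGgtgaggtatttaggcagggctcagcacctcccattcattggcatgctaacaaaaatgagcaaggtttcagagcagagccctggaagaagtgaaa
Tgfbr3 intron 3, chr5:107200958-107201257, minus strand: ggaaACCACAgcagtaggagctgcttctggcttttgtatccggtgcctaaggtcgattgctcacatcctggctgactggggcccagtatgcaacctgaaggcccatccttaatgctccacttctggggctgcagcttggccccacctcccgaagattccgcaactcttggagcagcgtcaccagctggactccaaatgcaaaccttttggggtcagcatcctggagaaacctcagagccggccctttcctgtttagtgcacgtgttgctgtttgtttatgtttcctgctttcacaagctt
Smad3 intron 3, chr9:63667206-63667505, minus strand: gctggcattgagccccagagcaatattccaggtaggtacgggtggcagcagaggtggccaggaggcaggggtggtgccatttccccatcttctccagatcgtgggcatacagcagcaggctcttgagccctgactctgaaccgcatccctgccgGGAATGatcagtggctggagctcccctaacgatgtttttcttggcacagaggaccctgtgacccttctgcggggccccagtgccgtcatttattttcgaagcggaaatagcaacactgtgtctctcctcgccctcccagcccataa
Tgfbr1 upstream, chr4:47352922-47353221, plus strand: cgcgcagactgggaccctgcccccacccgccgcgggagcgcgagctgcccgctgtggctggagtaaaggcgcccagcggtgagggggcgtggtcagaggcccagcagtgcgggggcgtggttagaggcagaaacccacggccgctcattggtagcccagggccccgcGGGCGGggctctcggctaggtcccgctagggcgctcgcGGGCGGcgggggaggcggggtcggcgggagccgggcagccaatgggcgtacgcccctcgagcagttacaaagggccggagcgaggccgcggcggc
Tgfbr2 upstream, chr9:116175361-116175612, minus strand: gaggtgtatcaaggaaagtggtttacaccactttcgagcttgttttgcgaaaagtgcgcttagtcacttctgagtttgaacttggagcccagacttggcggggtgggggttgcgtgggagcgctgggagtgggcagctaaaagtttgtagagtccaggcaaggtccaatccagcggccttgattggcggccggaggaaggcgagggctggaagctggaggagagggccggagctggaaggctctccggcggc

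The motifs were GTCTAGAC (the SMAD palindrome), CAGACA (a SMAD element with its flank), TGANTCA (AP-1, where N is any base), GGAATG (TEAD, the DNA-binding partner of YAP), TGTGGT (RUNX) and GGGCGG (the GC box of SP and KLF factors). The Tgfbr2 intron 2 sequence held 2 AP-1 matches, at bases 43 to 49 and 156 to 162, and a TEAD match at bases 201 to 206. The Tgfbr3 sequence held 1 RUNX match on the other strand, at bases 5 to 10, and the Smad3 sequence 1 TEAD match, at bases 155 to 160. The sequence upstream of Tgfbr1, of which 76% of the bases were G or C, held 2 GC boxes, and the one upstream of Tgfbr2 held none of the 6 motifs.

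In the central 300 bp of each region, AP-1 was the most common of the 6 motifs, at 42 of the 140 regions (30.0%). It was also the most common over all 183173 regions, at 29.5%. CAGACA was found at 34 (24.3% against 28.8%), RUNX at 33 (23.6% against 27.8%), TEAD at 25 (17.9% against 21%) and the GC box at 22 (15.7% against 13%). The SMAD palindrome was found at 1 region, of Smad7 (0.714% against 0.324%). That region had a peak in BM1 only, at percentile 6.57 of the peak scores of that library. These shares are descriptions of short letters, which any sequence can hold. When whole regions were searched, the order against all regions was the reverse for TEAD, RUNX and the GC box. By gene, AP-1 was found at 12 of the 30 regions of Smad3, 10 of the 33 of Tgfbr3, 9 of the 20 of Tgfbr2 and none of the 6 of Tgfb1, where 4 regions held a GC box.

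The libraries differed in size. BM3 had 14753 peaks and the others 51497 to 99022, and 56.4% of the peaks of BM3 lay within 1 kb of a TSS, against 24.2 to 33.2% in the others. The lists give peak scores but no read counts, so the depth of each library is unknown, and scores were compared only as percentiles among the peaks of the same library. A gene with no peak was given 0, which means that none was called at that depth. According to the study's methods, a replicate of the Lats1-CKO luminal group failed quality control; which of the pair it was is not named in the text used here, so results are given with and without BM3. The 3 other Lats1-CKO libraries (BM4, BM7 and BM8) had more peaks than any WT library. The highest percentile of a gene was read with the length of the lists in view. Over all tested genes its median was 74.8 to 77.1 in BM2, BM5 and BM6, 82.5 in BM1, 83.1 to 85.4 in the longer Lats1-CKO lists, and only 17.9 in BM3. Genotype and list length therefore cannot be told apart without BM3. Of 6 luminal marker genes (Krt8, Krt18, Epcam, Cdh1, Elf5 and Kit), 5 or 6 had a promoter peak in the WT libraries of both populations and in BM7, 3 in BM3, and 2 in each of BM4 and BM8. Of 6 basal marker genes (Krt5, Krt14, Trp63, Acta2, Itga6 and Itgb4), 3 or 4 had one in every library, luminal ones included, so the basal list did not separate the sorted populations in either genotype while the luminal list had more genes with a promoter peak in the luminal than in the basal-like libraries of Lats1-CKO and overlapping numbers in WT. Of the 6 fibroblast, 5 immune and 4 endothelial markers, 0 to 4, 0 to 3 and 0 to 2 had a promoter peak, and their part in the results was not tested. Lats1 itself had a promoter peak in every library other than BM3, at percentiles of 53.6 to 81.5, and peaks of this kind do not check the deletion.

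The windows of the 9 genes held 75 (BM1) and 52 (BM5) peaks in WT luminal, 71 (BM2) and 50 (BM6) in WT basal-like, 14 (BM3) and 84 (BM7) in Lats1-CKO luminal, and 82 (BM4) and 86 (BM8) in Lats1-CKO basal-like cells. Within each group values are given in this order of libraries throughout. These numbers followed the size of the libraries. Per 10000 peaks of the library they were 8.68 to 10.3, with BM8 lowest and BM1 highest, and BM3 was within that range at 9.49. The number of peaks of a gene did not separate the groups for any of the 9, either by genotype (0.0972% of all tested genes did, in either direction) or by population (0.259%). The 9 genes thus kept a near constant share of the peaks of a library while the numbers varied severalfold.

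**Figure D1:**
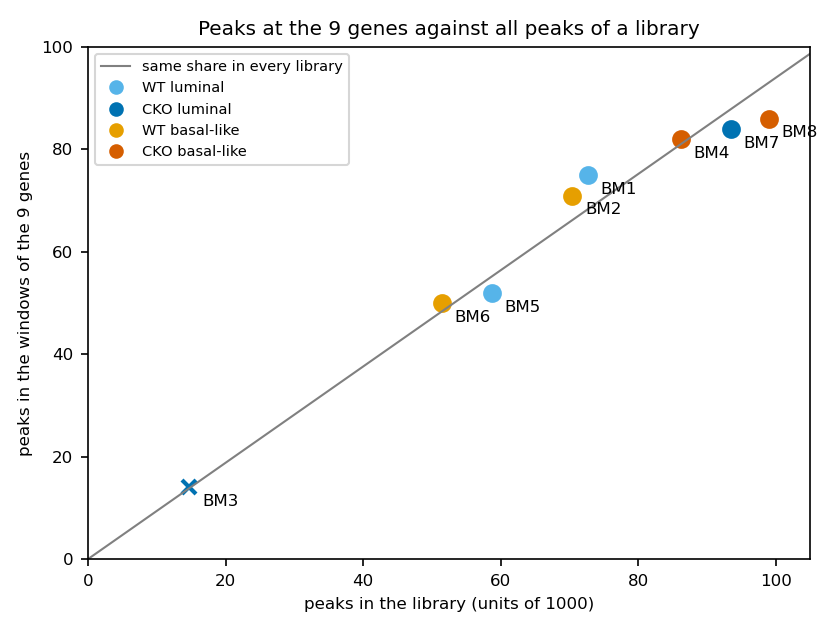
Number of peaks in the windows of the 9 genes (vertical axis) against the number of peaks in the library (horizontal axis, in units of 1000), 1 point for each of the 8 libraries; CKO stands for Lats1-CKO, the cross is BM3 and the line is the share over all libraries together. The points lie close to the line, from 14 peaks in BM3 to 86 in BM8.

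Of the 140 regions, 96 were intronic, 19 upstream, 18 in exons with untranslated sequence, 4 in coding exons and 3 in noncoding exons, and 31 lay within 1 kb of a TSS of the gene itself. A further measure is how many libraries had a peak in a region. Peaks were present in all 8 libraries at 11 regions (7.86%, against 5.95% of all regions) and in all 7 libraries other than BM3 at 25 (17.9% against 12.5%). They were present in a single library at 51 (36.4% against 44.5%). The 11 regions with a peak in every library belonged to Smad3 (4), Tgfb2 (2), Tgfbr1 (2), Tgfb1, Tgfbr2 and Inhba (1 each). Per 10 kb of window, regions numbered 3.12 at Smad7, 2.69 at Inhba, 2.48 at Smad3, 2.17 at Tgfb3, 2.14 at Tgfb1, 1.98 at Tgfbr2, 1.72 at Tgfb2, 1.71 at Tgfbr3 and 1.12 at Tgfbr1. Smad7 was thus denser than 95.4% of tested genes and Tgfbr1 denser than 44.1%.

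Among the ligands, Tgfb1 (ENSMUSG00000002603.15, chr7:25687002-25705077, plus strand) encodes the isoform found in most tissues. Its window had 6 regions. The highest percentile was 84.7 and 95.1 in WT luminal, 84.9 and 78.0 in WT basal-like, 24.3 and 82.9 in Lats1-CKO luminal, and 96.7 and 95.1 in Lats1-CKO basal-like cells. BM3 was low and BM6 was the lowest of the other 7. These values came from a region 6.12 kb upstream of Tgfb1 (chr7:25680641-25681123) that lies 26 bp from the TSS of the neighboring gene B9d2, so it cannot be assigned to Tgfb1. Within 1 kb of the TSSs of Tgfb1 the best peak was at 69.1 and 18.8 in WT luminal, 62.7 and 56.6 in WT basal-like, 0 and 23.5 in Lats1-CKO luminal and 93.1 and 70.5 in Lats1-CKO basal-like cells. The 2 Lats1-CKO basal-like libraries were the highest, although BM8 was only just above the WT luminal BM1. The luminal libraries varied most, with BM1 far above BM5. When each library other than BM3 was reduced to its 50000 highest-scoring peaks, BM4 was still the highest, at 88.1. BM8 was then at 41.5, below BM1 at 55.1, BM6 at 55.3 and BM2 at 47.5. It stayed above BM5 and BM7, which were at 4.51 and 0.

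Tgfb2 (ENSMUSG00000039239.14, chr1:186622792-186705989, minus strand) had 16 regions, 12 of them intronic. Its highest percentile was 94.7 and 91.6 in WT luminal, 96.4 and 97.4 in WT basal-like, 76.9 and 99.7 in Lats1-CKO luminal and 94.8 and 99.6 in Lats1-CKO basal-like cells. In all libraries other than BM3 and BM4 that was a region in intron 6, 78.4 kb into the gene (chr1:186627295-186627924), which was at 91.6 or more in every library other than BM3, where it had no peak. The first exon (chr1:186705223-186705724), near the TSS of the noncoding gene Gm29491, had a peak in all 8 libraries, at 77.3 and 43.5 in WT luminal, 73.2 and 65.1 in WT basal-like, 76.9 and 71.7 in Lats1-CKO luminal and 76.8 and 76.1 in Lats1-CKO basal-like cells. Thus the distal intronic peak ranked above the promoter peak in each of the 7 libraries. BM4 also had a high peak, at 94.8, in intron 1, 40.5 kb into the gene.

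Tgfb3 (ENSMUSG00000021253.7, chr12:86056745-86079041, minus strand), whose product acts in palate and lung development, had 7 regions. Its highest percentile was 77.8 and 60.8 in WT luminal, 85.4 and 69.6 in WT basal-like, 0 and 85.9 in Lats1-CKO luminal and 81.2 and 92.4 in Lats1-CKO basal-like cells. BM3 had no peak at all in this window. The promoter pair of regions, over the TSS (chr12:86078928-86079163) and 0.474 kb upstream of it (chr12:86079358-86079673), also had none in the WT luminal library BM5. The noncoding gene Gm48008 starts within 1 kb of both. For none of the 3 ligand genes did the genotypes or the populations stand apart.

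**Figure D2:**
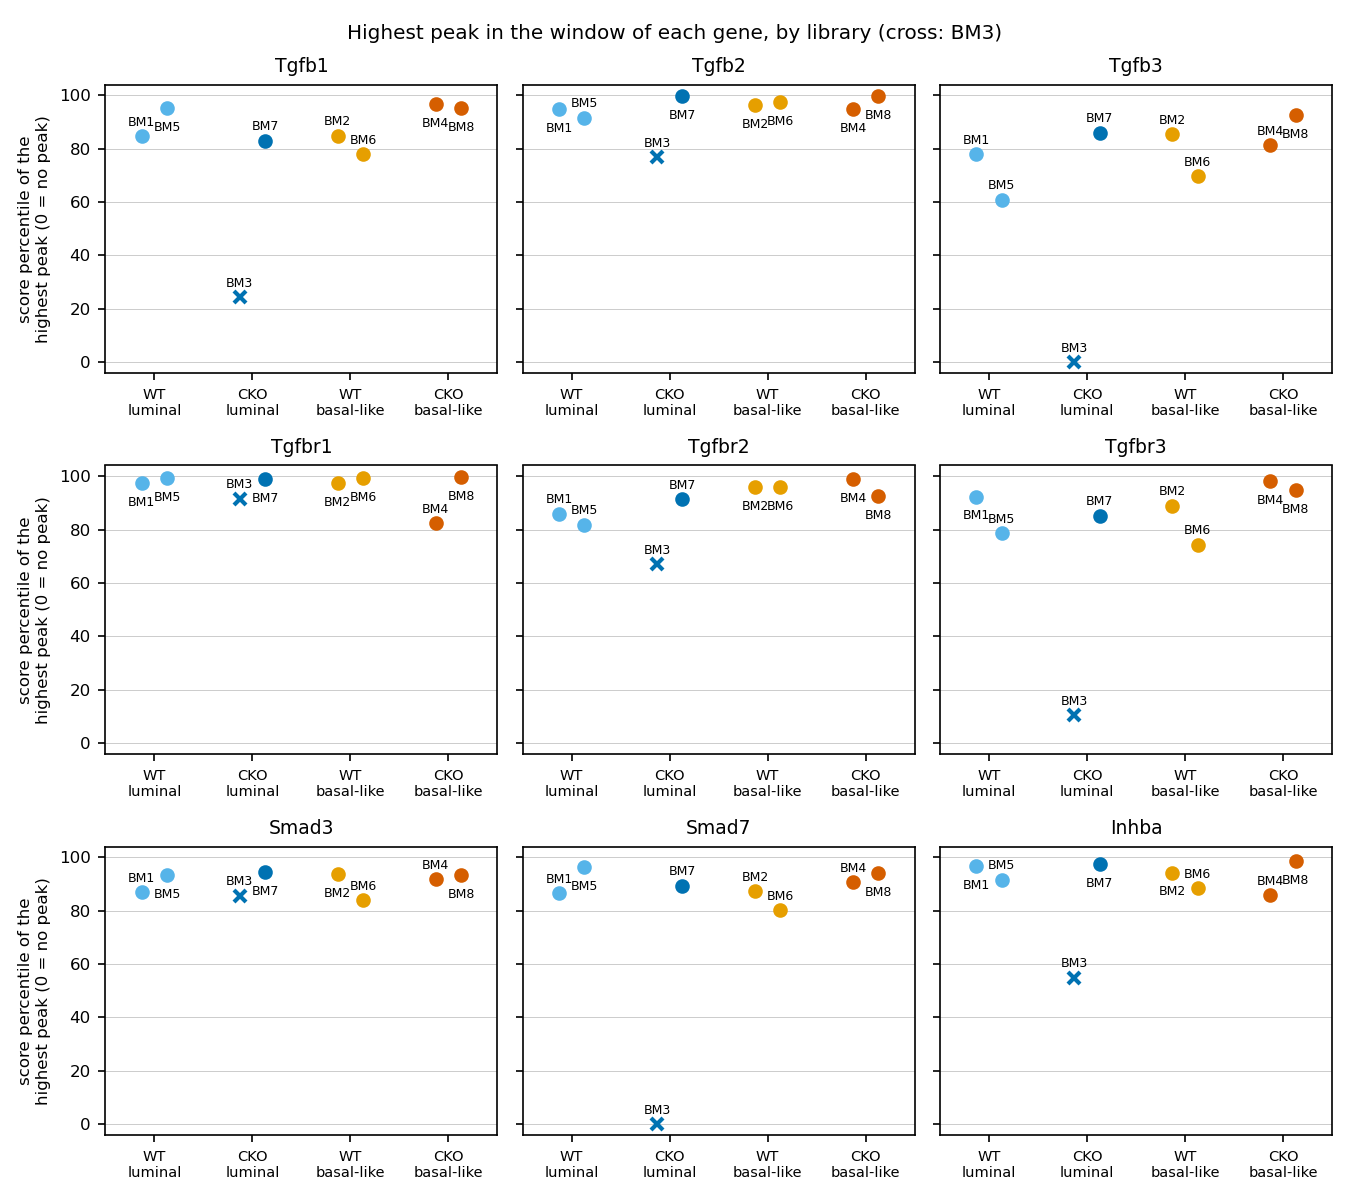
Score percentile, within its library, of the highest peak in the window of each of the 9 genes (vertical axis, 0 where there was no peak) in the 4 groups (horizontal axis; CKO is Lats1-CKO), with 1 point for each library and a cross for BM3. BM3 is the lowest point for 7 of the genes, and the basal-like points lie above the luminal ones only for Tgfbr2, where the lowest basal-like value is 92.7 and the highest luminal value 91.3.

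Among the receptors, Tgfbr1 (ENSMUSG00000007613.15, chr4:47353222-47414931, plus strand), the type I receptor, had 8 regions. The region over its first exon and TSS (chr4:47352909-47353608), whose upstream sequence is shown above, was at 97.4 and 99.4 in WT luminal, 97.3 and 99.2 in WT basal-like, 91.6 and 98.1 in Lats1-CKO luminal and 82.5 and 98.5 in Lats1-CKO basal-like cells. BM4 was lowest. Of the 140 regions it was the one whose lowest percentile over the 8 libraries was highest. A region in intron 8, 54.2 kb into the gene (chr4:47407227-47407544), also had a peak in all 8 libraries, at 52.1 in BM3, 70.9 in BM4 and 85.6 to 99.6 in the others, and it outranked the promoter in BM7 and BM8.

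Tgfbr2 (ENSMUSG00000032440.13, chr9:116084293-116175360, minus strand), the type II receptor that binds ligand first, was the 1 gene of the 9 whose groups did not overlap. Its highest percentile was 86 and 81.8 in WT luminal, 67 and 91.3 in Lats1-CKO luminal, 95.9 and 95.9 in WT basal-like and 99.0 and 92.7 in Lats1-CKO basal-like cells. Every basal-like library was above every luminal one, at 95.9 ± 2.57 against 81.5 ± 10.4 (mean ± SD, n = 4 each), although the gap between BM8 and BM7 was small. The difference was 14.35, with p = 0.0286 by the two-sided exact permutation test, the smallest p that 4 against 4 libraries can give, and adjusted p = 1 (Benjamini-Hochberg over 18524 genes). Of all tested genes, 0.977% were higher in all basal-like libraries and 0.14% in all luminal ones, and a single gene of 9 was not read as a property of the set.

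The peak behind that difference was, in all 4 basal-like libraries, in intron 2, 22.3 kb into the gene (chr9:116152808-116153301), the first sequence above. It was at 86 and 77.4 in WT luminal, 67 and 81.0 in Lats1-CKO luminal, 95.9 and 95.9 in WT basal-like and 99.0 and 92.7 in Lats1-CKO basal-like cells. The basal-like library BM8 and the luminal library BM1 came nearest to each other. The mean was 95.9 ± 2.57 in basal-like and 77.9 ± 8.04 in luminal libraries (SD, n = 4 each), a difference of 18.03 (two-sided exact permutation p = 0.0286, adjusted p = 1 over 183173 regions). Without BM3 the difference was 14.4, and it was 20.9 when each of the other 7 libraries was reduced to its 50000 highest-scoring peaks, again without overlap. With lists of 10000 top-scoring peaks the groups overlapped, as BM3 was at 51.3 and BM8 at 27.5 among them, and the call for the gene also ended when only peaks near a TSS were counted. Both AP-1 matches and the TEAD match noted above lay in the central 300 bp of this region, which had a peak in every library.

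The TSS region of Tgfbr2 (chr9:116175111-116175612) did not follow the same order. It was at 79.3 and 68.7 in WT luminal, 0 and 91.3 in Lats1-CKO luminal, 83.0 and 88.5 in WT basal-like and 87.0 and 81.3 in Lats1-CKO basal-like cells, and BM7, a luminal library, was the highest. Another region, in intron 6, 76.1 kb into the gene (chr9:116098980-116099475), ranged from 52.6 in BM4 to 84.1 in BM7 with no peak in BM3.

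Tgfbr3 (ENSMUSG00000029287.14, chr5:107106570-107289629, minus strand), which encodes betaglycan and is the longest of the 9 genes, had 33 regions. None of them had a peak in all 8 libraries, as BM3 had only 2 peaks in this window. The highest percentile was 92.4 and 78.6 in WT luminal, 89.0 and 74.4 in WT basal-like, 10.6 and 85.3 in Lats1-CKO luminal and 98.3 and 94.7 in Lats1-CKO basal-like cells. A region in intron 3, 88.5 kb into the gene (chr5:107200940-107201274), had no peak in any luminal library and was at 49.99 and 32.2 in WT basal-like and 91.2 and 5.16 in Lats1-CKO basal-like cells. The BM8 peak was thus near the bottom of its list. The mean over the 4 basal-like libraries was 44.6 ± 36.1 (SD), with p = 0.0286 by the exact permutation test (two-sided) and adjusted p = 1. This region did not separate the populations with the 10000 highest-scoring peaks, with peaks above the median score or with 50000 peaks for each of the 7 libraries, and, with the last, a different region of intron 4, 123 kb into the gene (chr5:107166706-107166993), did. There the percentiles among the 50000 peaks were 0, 0 and 13.6 in the luminal libraries BM1, BM5 and BM7, and 47.5, 81.9, 38.0 and 40.4 in the basal-like libraries BM2, BM4, BM6 and BM8. That region was chosen after its values had been seen.

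**Figure D3:**
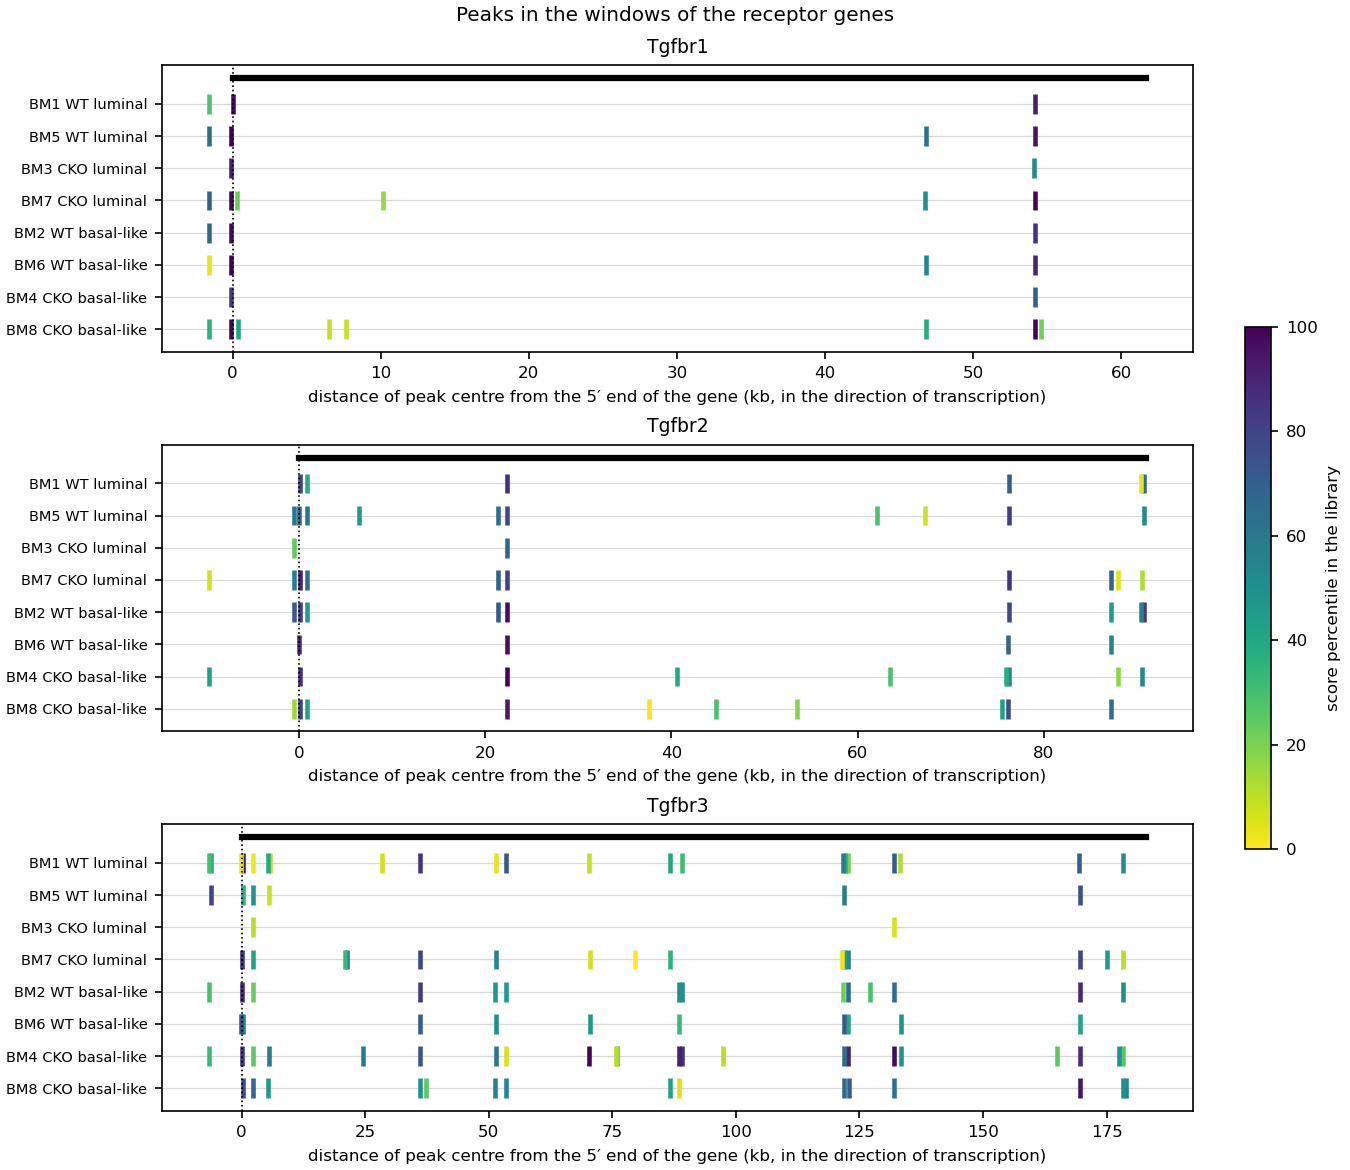
Positions of all peaks in the windows of Tgfbr1, Tgfbr2 and Tgfbr3, as the distance of the peak centre from the 5′ end of the gene (horizontal axis, kb, negative upstream), in 1 row for each library; the black bar is the gene body and color gives the score percentile in the library. The Tgfbr1 promoter and the Tgfbr2 peak 22.3 kb into the gene appear in every row, and the row of BM3 is nearly empty at Tgfbr3.

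Smad3 (ENSMUSG00000032402.12, chr9:63646767-63757994, minus strand), the transducer of the signal, had 30 regions, 26 of them intronic, and 4 with a peak in every library. Its highest percentile was 87.0 and 93.4 in WT luminal, 93.6 and 84.0 in WT basal-like, 85.5 and 94.6 in Lats1-CKO luminal and 91.7 and 93.3 in Lats1-CKO basal-like cells. BM3 was within the range of the other libraries here. A region 14.0 kb into the gene (chr9:63743826-63744197) was at 85.5 in BM3 and from 42.8 in BM6 to 93.6 in BM2 elsewhere, and one 51.6 kb into the gene (chr9:63706181-63706707) was at 42.0 in BM3 and 80.8 to 94.6 elsewhere. The peak over the first TSS (chr9:63757914-63758453) was at 16.8 in BM3 and 41.5 to 87.8 elsewhere.

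A single Smad3 region separated the genotypes. It lies 90.6 kb into the gene (chr9:63667172-63667539), in intron 3 of the longest transcript, where another transcript has a coding exon and a further one starts 0.808 kb downstream, in the direction of transcription. It was at 32.3 and 85.0 in WT luminal, 33.2 and 30.0 in WT basal-like, 0 and 0 in Lats1-CKO luminal and 2.45 and 0 in Lats1-CKO basal-like cells. Of the Lats1-CKO libraries only BM4 had a peak there, and it ranked near the bottom of the list. The mean was 45.1 ± 26.6 in WT and 0.613 ± 1.23 in Lats1-CKO libraries (SD, n = 4 each), a difference of −44.51 (two-sided exact permutation p = 0.0286, adjusted p = 1), and without BM3 it was −44.3. It was the 1 region of the 140 higher in all WT libraries (0.34% of all regions were), and none was higher in all Lats1-CKO libraries (0.0628%). With 50000 peaks for each of the 7 libraries the groups did not overlap, but BM1 and BM2 were at 1.56 and 5.91, and the difference was −29.4 with p = 0.171 by the exact permutation test (two-sided). With 10000 peaks or with peaks above the median score, BM5 was the only library with a peak there and the call was lost.

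**Figure D4:**
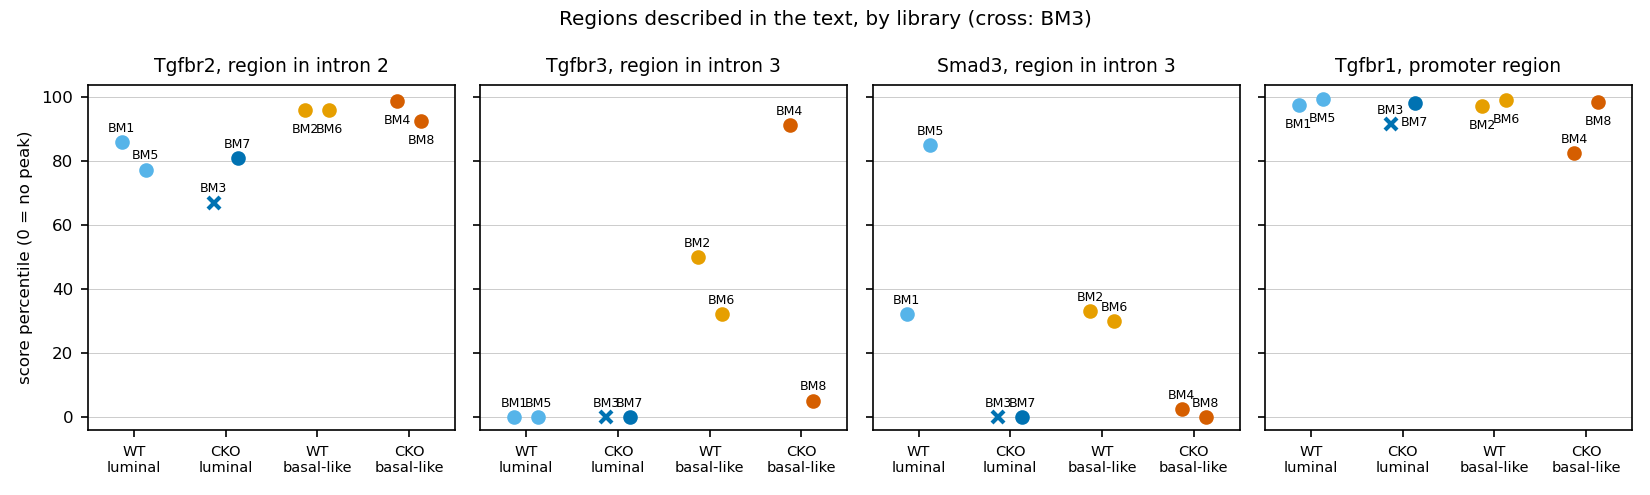
Score percentile in each library (vertical axis, 0 where there was no peak) of 4 regions, in the 4 groups (horizontal axis; CKO is Lats1-CKO), with 1 point for each library and a cross for BM3. The Tgfbr2 points are all at 92.7 or more in basal-like libraries, the Tgfbr3 points are at 0 in every luminal library, the Smad3 points are at 2.45 or less in Lats1-CKO libraries and the Tgfbr1 promoter is at 82.5 or more in all 8.

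By population, 2 of the 140 regions were higher in all basal-like libraries, the Tgfbr2 and Tgfbr3 regions described above (0.527% of all regions were), and none was higher in all luminal libraries (0.0502%). That one-sided count rested on BM3. Without it, 2 regions were higher in basal-like (0.532% of all regions were) and 2 in luminal libraries (1.11%), and with 50000 peaks for each of the 7 libraries there were again 2 and 2 (0.924% and 1.44%). In both settings the luminal ones were a region upstream of Smad7 and a region in intron 1 of Tgfb2, 49.5 kb into the gene (chr1:186656278-186656673). The Tgfb2 region was at 69.1 and 62.4 in WT luminal, 43.0 and 57.8 in Lats1-CKO luminal, 42.0 and 6.34 in WT basal-like and 53.2 and 38.3 in Lats1-CKO basal-like cells, so that BM3 alone of the luminal libraries lay among the basal-like ones. With 50000 peaks the gap at the Tgfb2 region was small, with the luminal BM7 at 21.2 and the basal-like BM4 and BM2 at 19.25 and 18.3. The WT luminal BM1 and BM5 were at 55.1 and 55.8. At the Smad7 region BM7 was then at 20.7 and the basal-like BM2 at 16.1. Both regions were chosen after their values had been seen. No gene of the 9 separated the genotypes by its highest percentile, whereas 0.394% of all tested genes were higher in all Lats1-CKO and 0.626% in all WT libraries. With all 8 libraries the difference between Lats1-CKO and WT was below 0 for 8 of the 9 genes, and without BM3 it was above 0 for 8 of the 9, so 1 library set the sign. Among all tested genes 39.1% were above 0 with all 8 libraries and 77.4% without BM3. In a design of 4 against 4 libraries no adjusted p fell under 0.05 for any gene or region of the genome; at an unadjusted p under 0.05 the exact test gave 189 genes by genotype and 207 by population, and 737 and 1057 regions, while limma gave 356 and 291 genes and 5465 and 4019 regions, also with none after adjustment.

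Smad7 (ENSMUSG00000025880.11, chromosome 18, 75367529 to 75395935, plus strand), the inhibitory SMAD, had 12 regions and no peak in BM3. Its highest percentile was 86.5 and 96.5 in WT luminal, 87.3 and 80.1 in WT basal-like, 0 and 89.3 in Lats1-CKO luminal and 90.7 and 94.2 in Lats1-CKO basal-like cells. In BM1, BM2, BM4, BM5 and BM7 this was a region 8.19 kb into the gene, over a coding exon, and in BM6 and BM8 it was one 0.814 kb upstream of the TSS. The upstream region was at 37.7 and 84.7 in WT luminal, 74.2 and 80.1 in WT basal-like, 86.3 in BM7, and 85.3 and 94.2 in Lats1-CKO basal-like cells. The noncoding gene Gm20544 starts 373 bp from it, so it may belong to either promoter. Further upstream, 9.44 kb from the TSS, a region had peaks in the luminal libraries BM1, BM5 and BM7, at 76.1, 79.8 and 57.6, and in 1 basal-like library, BM2, at 40.5. Without BM3 its groups did not overlap, with luminal higher, as for 1.11% of all regions.

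**Figure D5:**
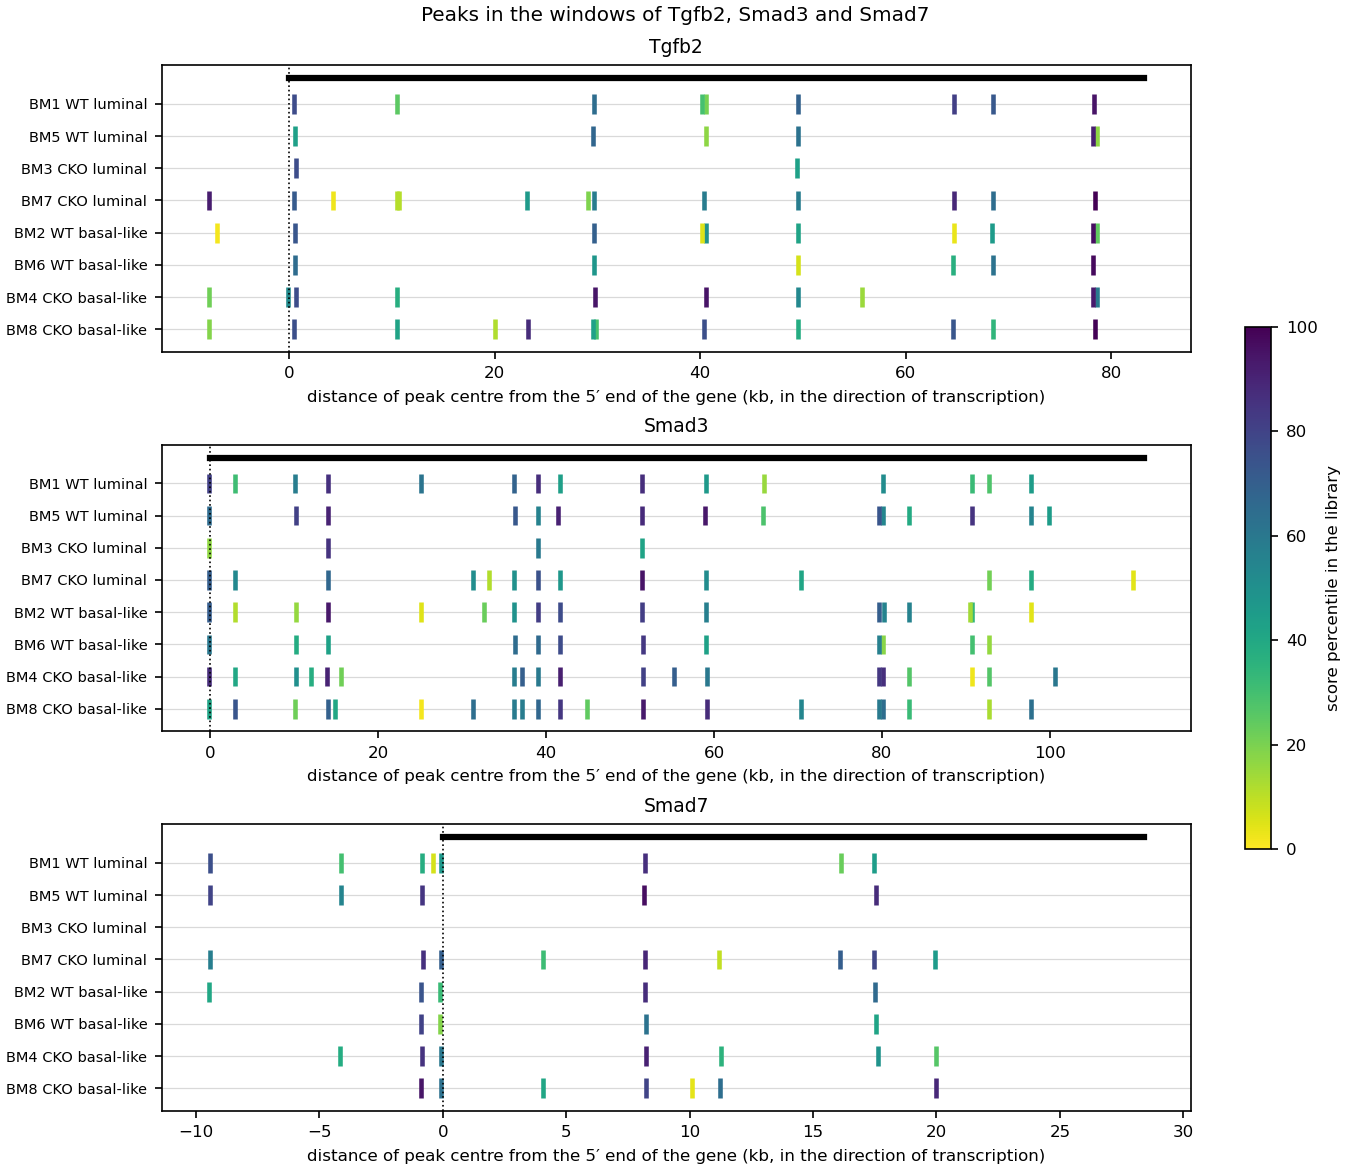
Positions of all peaks in the windows of Tgfb2, Smad3 and Smad7, as the distance of the peak centre from the 5′ end of the gene (horizontal axis, kb, negative upstream), in 1 row for each library; the black bar is the gene body and color gives the score percentile in the library. The region 78.4 kb into Tgfb2 is dark in every row other than BM3, and Smad7 has no peak in BM3.

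Inhba (ENSMUSG00000041324.14, chr13:16011851-16031621, plus strand) had 8 regions. Its highest peak, in every library, was 0.552 kb from the 5′ end of the gene (chr13:16012255-16012552), and it was at 96.7 and 91.6 in WT luminal, 94.2 and 88.4 in WT basal-like, 54.9 and 97.3 in Lats1-CKO luminal and 85.7 and 98.5 in Lats1-CKO basal-like cells. Both the highest and the lowest values other than that of BM3 were in Lats1-CKO basal-like cells. Inhba had a single peak in BM3 and in the WT luminal library BM5, and 3 to 5 in the others.

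Without BM3, 10 of the 140 regions were higher in all 3 remaining Lats1-CKO libraries than in the 4 WT ones, against 5.55% of all regions. They belonged to Smad7 (4), Tgfb2 (2), Tgfb3, Tgfbr3, Smad3 and Inhba (1 each). In intron 1 of Tgfb2, 40.5 kb into the gene, the WT libraries BM1, BM5, BM2 and BM6 were at 29.4, 17.0, 48.9 and 0, and BM4, BM7 and BM8 at 94.8, 58.3 and 76.1. In intron 3 of Inhba, 4.81 kb into the gene (chr13:16016589-16016734), the WT luminal libraries had no peak, the WT basal-like BM2 and BM6 were at 33.2 and 30.7, and BM4, BM7 and BM8 at 47.7, 63.9 and 70.8. At the Tgfb3 TSS the WT libraries BM1, BM5, BM2 and BM6 were at 44.8, 0, 56 and 69.6, and BM4, BM7 and BM8 at 81.2, 82.0 and 92. Those libraries also had the longest lists. With 50000 peaks for each of the 7 libraries, 1 region was higher in Lats1-CKO (1.99% of all regions were), at the Smad7 TSS, and 2 were higher in WT, both in Smad3 (also 1.99% of all regions). Without BM3, 1 region was higher in WT (0.355%). Of genes in general, 13.1% were higher in Lats1-CKO without BM3 and 3.58% with equal numbers of peaks, and of the 9 genes none was in either case. The part of list length in the 10 regions was not tested otherwise.

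The wider pathway was described with 53 other genes of TGF-beta, activin and bone morphogenetic protein signaling. In none of them did the highest percentile or the number of peaks separate the genotypes or the populations. By highest percentile, 0.394% of all tested genes were higher in all Lats1-CKO and 0.626% in all WT libraries. By population the shares were 0.977% for basal-like and 0.14% for luminal. By number of peaks, 0.0972% separated the genotypes and 0.259% the populations. With shares this low, a count of 0 among 53 was not read as a property of the set. The median highest percentile of the 53 genes was 81.7 to 88.0 in the 7 libraries and 29.2 in BM3, against 74.8 to 85.4 and 17.9 over all tested genes. For 9 of the 53 it was 90 or more in each of the 7 libraries. Among these were Ltbp1, which encodes a binding protein of latent TGF-beta (97.4 to 99.6), Smurf1, a ubiquitin ligase that acts with SMAD7 (96.3 to 99.4), Pmepa1, a target gene that dampens the signal (95.4 to 99.3), and the integrin subunits Itgb8 and Itgb6, which take part in releasing active TGF-beta (94.7 to 99.8 and 94.3 to 99.1). The corepressor gene Skil was at 91.4 to 98.7. Other known targets were lower in some libraries, with Id1 at 83.1 to 94.6 and Ccn2 at 44.2 to 81.9. Smad4, the partner shared by all branches, ranged from 48.2 to 96.7. For 5 genes (Bmp7, Inha, Inhbb, Nrros and Tgif2) at least 1 of the 7 libraries had no peak. These genes were named after their levels had been seen. The share of all tested genes at 90 or more in each of the 7 libraries was not computed. The highest percentile is taken over the whole window, and a longer window can hold more peaks. Ltbp1 had 59 regions in 399 kb. At promoters alone Pmepa1 was at 59.3 to 85.0, and Itgb6 had a peak only in BM7, at 43.3. For Itgb8 and Skil the promoter peak was the highest of the window in each library. By population the difference in highest percentile was above 0 for 43 of 53 with all libraries and 23 of 53 without BM3, against 77.7% and 46.1% of all tested genes.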

How the data were processed

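The authors generated 8 ATAC-seq libraries from sorted luminal and basal-like cells. Per the study's methods, adapters were removed by cutadapt, reads with a single place in mm10 were kept (Bowtie 1.0.0), and the alignments were cleared of mitochondrial reads, duplicates (Picard 2.3.0, a version given in the submitters' processing notes) and long fragments. Peaks were called in each library with MACS2 and those on the ENCODE blacklist removed. The processing notes name MACS2 2.1.1.20160309 and the methods another version. The authors deposited, for each library, positions and a whole-number score for each peak. The score, at least 13, was taken to be that of MACS2 from its values. It is not normalized between libraries and rises with depth.

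Scores were converted to percentiles within each library (mean rank for ties). The annotation was GENCODE M21, and bases were read from GRCm38.p6. A peak belonged to a gene when 1 bp or more lay in the gene body or within 10 kb of a TSS, and a promoter peak lay within 1 kb. Values of 4 and 4 libraries were compared by two-sided exact permutation tests over 70 arrangements, with Benjamini-Hochberg adjustment over all tested genes or regions, and groups were called apart when they did not overlap. Each test ignored the other factor, so both genotypes were treated as exchangeable when populations were compared, and the reverse. Alternatives were limma 3.58.1 with both factors (R 4.3.3), each library left out, the 10000 highest-scoring peaks, peaks above the median score, other windows and merging within 100 bp. Equal lists of 50000 peaks in 7 libraries were added after seeing the data. The test was checked on simulated percentiles with independent normal noise of the same SD in every library. Those had no short list like that of BM3 and no link of list length with genotype, so the check does not cover these. The members and lists were chosen with earlier results of these data known. The regions named were, for each gene, one at a TSS, those whose groups did not overlap, and the one with the highest lowest percentile; others are said to have been chosen after their values were seen or are described for their peaks in most libraries. Ctgf and Cyr61 appear as Ccn2 and Ccn1. The computation used scipy 1.17.1, pandas 2.3.3, pysam 0.24.0 and numpy 2.4.6 under Python 3.11.15.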

Additional observations from a re-analysis of the deposited data

Results flagged for a closer look

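Of 36 sets of 4 libraries (each gene by genotype and by population), 7 held a library that stood apart by Dixon's test at the 95% level. Chance gives about 1 in 20 for independent sets of normal values. These sets use each value of a gene more than once and hold percentiles, so 7 of 36 cannot be judged by that rate. BM3 was the library that stood apart in 6. Its highest percentile was 0 at Tgfb3 among the Lats1-CKO libraries, 0 at Smad7 among the Lats1-CKO and among the luminal libraries, 10.6 at Tgfbr3 in both of these sets, and 54.9 at Inhba among the luminal libraries. BM3 also had the shortest list, with 14753 peaks. The other was BM4 at Tgfbr1 among the basal-like libraries, at 82.5.

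At Tgfb1 the Lats1-CKO libraries differed from WT in opposite directions in the 2 populations, by −36.28 in luminal and by 14.47 in basal-like cells. The former rests largely on BM3, the region lies at the TSS of B9d2, and the difference between the populations was not tested.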

How the results depend on the processing

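No paired analysis was possible because the labels carry no replicate numbers and those used here only follow the order of the accessions. Genes that separated the genotypes by highest percentile stayed at 0 under every alternative. Genes that separated the populations numbered 1 with all libraries, 1 to 2 with each library left out (2 without BM7), and 0 with the 10000 highest-scoring peaks, with TSSs within 10 kb only, with TSSs within 1 kb only and by limma. The limma counts are of adjusted p under 0.05, by which the exact test also gave 0. At an unadjusted limma p under 0.05 there were 0 genes for either factor, against 356 by genotype and 291 by population of all 18524. Of the 140 regions there were 2 by genotype and 7 by population, against 5465 and 4019 of all 183173. By number of peaks both counts were 0, and 0 to 1 with each library left out (1 by genotype without BM3, 1 by population without BM6). Regions that separated the genotypes numbered 1, 1 to 11 with each library left out (11 without BM3, 2 without BM2 or BM6), 0 with 10000 peaks, above the median score and by limma, and 3 with 50000 peaks. Regions that separated the populations numbered 2, 2 to 7 with each library left out (7 without BM7, 5 without BM6, 4 without BM3 or BM5), 0 with 10000 peaks and by limma, 1 above the median score and 4 with 50000 peaks. Without BM3, 5.55% of all regions were higher in Lats1-CKO and 0.355% in WT libraries, and 0.532% in basal-like and 1.11% in luminal ones. Shares with 50000 peaks are given above. With any other library left out, and for numbers of peaks without BM3, no share of all genes or regions was computed. None was computed either with 10000 peaks, with peaks above the median score or with TSSs only. Those counts are not read as a property of the genes examined. In whole regions CAGACA was found at 17.1% (19.6% of all regions) in place of 24.3%, as most regions are shorter than 300 bp. The order against all regions turned around for TEAD (17.1% against 15.3%), RUNX (22.1% against 20.6%) and the GC box (10.7% against 11.1%). The lists give no depth, so a missing peak is limited by an unknown number of reads.

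Differences that were not called changed sign as follows, and the cause was not tested. Lats1-CKO minus WT, with each library left out, ran from −18.2 to 5.91 at Tgfb1, −4.58 to 3.04 at Tgfb2, −17.7 to 13.1 at Tgfb3, −6.27 to 4.38 at Tgfbr2, −20.1 to 9.16 at Tgfbr3, −27.6 to 3.79 at Smad7, −13.5 to 1.11 at Inhba and −0.0013 to 3.76 at Smad3; all but the last turned positive without BM3. With 10000 peaks it was 12.8 at Tgfb1, 10.4 at Tgfb2, 6.25 at Tgfb3, 9.46 at Tgfbr2 and 16.5 at Tgfbr3. With 50000 peaks it was 2.22, 2.92, 7.94, 2.04 and 5.88 at the same genes. It was 13.2 at Tgfb2 within 10 kb of TSSs, 10.6 at Tgfb2, 6.66 at Tgfb3 and −3.59 at Smad3 within 1 kb, and at Tgfb3 7.87 above the median score and 4.45 without peaks near another TSS. Basal-like minus luminal, with each library left out, ran from −3.92 to 1.87 at Tgfbr1, −0.99 to 2.77 at Smad3, −2.66 to 29.5 at Smad7 and −3.46 to 10.7 at Inhba. At Smad3, Smad7 and Inhba it was −14.9, −2.04 and −12.3 with 10000 peaks and −0.978, −1.86 and −5.32 with 50000. It was −2.07 at Tgfb2 within 10 kb of TSSs and −4.68 at Smad3 within 1 kb.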
